A study of Rattus norvegicus with 23 samples.

Results

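Long non-coding RNA genes that were expressed in rat kidney cells were examined in NRK-52E and NRK-49F cells kept at pH 7.4 or pH 6.0. The genes were selected on 2 columns of the deposited table. A gene was taken if its annotated biotype was lncRNA and its mean level over the 23 labelled samples was at least 2 CPM (the count of a gene relative to the total count of its sample). Of the 2465 lncRNA genes in a table of 30452 genes, 1889 had at least 1 count and 493 met the limit, so that the level itself chose them and is given as a description. The 3 genes just inside the limit had means of 2.01, 2.04 and 2.06 CPM, and the 3 just outside had 1.996, 1.996 and 1.998 CPM.

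Long non-coding RNAs are transcripts without a long open reading frame that are made, capped and often spliced and polyadenylated like messenger RNAs. Some act in the nucleus on chromatin or on the gene next to them, some form nuclear bodies with RNA-binding proteins, and some bind proteins or microRNAs in the cytoplasm. Their levels tend to be lower and to differ more between cell types than those of messenger RNAs, and the function of most of them is unknown.

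NRK-52E (NRKE in the labels, given as epithelial) and NRK-49F (NRKF, fibroblasts) are established lines from normal rat kidney, each grown alone. Serum was withdrawn from all cells for 24 h, and 48 h followed in medium of pH 7.4, the control, or pH 6.0, set with HCl, and their poly(A) RNA was sequenced. There were 6 samples of NRK-52E at each pH, 6 of NRK-49F at pH 7.4 and 5 of NRK-49F at pH 6.0. The labels further place the samples in sample groups 1 and 3 (NRK-52E) and 4 and 6 (NRK-49F), without saying what these groups are, and do not say whether replicates were separate cultures, so that the p-values measure the spread between these samples only.

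The samples held 16412564 to 34250535 counts, of which 1.05% to 1.24% fell on the 493 lncRNA genes. This share was 1.18% ± 0.037 (SD, n = 6) in NRK-52E at pH 7.4, 1.21% ± 0.025 (n = 6) at pH 6.0, 1.15% ± 0.032 (n = 6) in NRK-49F at pH 7.4 and 1.07% ± 0.016 (n = 5) at pH 6.0. The cell labels were checked on lists of marker genes. Of 12 epithelial markers found in the table, 10 were under 2 FPM in each condition (FPM, the same scale as CPM after TMM scaling of the libraries), among them Epcam, Cdh1, Krt18 and Esrp1, in NRK-52E as well. Krt8 was at 499 FPM in NRK-52E and 839 FPM in NRK-49F at pH 7.4, and Krt7 at 21.8 and 1.42 FPM. Of 13 fibroblast markers, 2 (Thy1 and Fap) were under 2 FPM in each condition, Pdgfra was at 1.83 and 306 FPM and Col1a2 at 13.5 and 4476 FPM in NRK-52E and NRK-49F, but Col3a1 was higher in NRK-52E, at 6149 against 1212 FPM. The lines were thus told apart by most fibroblast markers, while the epithelial label was not borne out by the defining epithelial markers. The summed level of the fibroblast list ranged over samples from 4986 to 8161 FPM in NRK-52E at pH 7.4, 1842 to 3120 FPM at pH 6.0, 11035 to 14063 FPM in NRK-49F at pH 7.4 and 7651 to 10239 FPM at pH 6.0, and that of the epithelial list from 463 to 683, 200 to 265, 668 to 1207 and 439 to 697 FPM in the same order. In bulk RNA, fewer cells of a kind and less RNA per cell cannot be told apart.

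Most of the 493 genes have no name in the table. Identifiers alone were given for 459, clone names for 9 and gene symbols for 25, and the RefSeq table used here holds no Ensembl identifiers through which the others could be named. All 25 symbols were found in RefSeq (assembly GRCr8), 24 of them on the same chromosome, but RefSeq lists 22 as protein-coding genes and 3 as lncRNA genes: Fendrr, a lncRNA transcribed next to the gene of the transcription factor FOXF1 and needed in development of heart and body wall, Krbox1 and Lnc134. The lncRNA annotation of the table therefore went against RefSeq for most genes with a symbol. The names Sumo3.1, Selenow.1, Mafk.1 and Lsm6.1, each with a number after the symbol, mark further rows of the same symbol. Sumo3, Selenow and Mafk have a second lncRNA row each at 0 counts, and Rpl30, Gid4, Lsm6 and Samd8 have other rows annotated as protein-coding. Multi-mapping reads were counted and no strand setting is given, so that rows of 1 symbol may share reads, which was not tested. No gene of the lists of small nucleolar RNA host genes, microRNA host genes, antisense symbols, imprinted lncRNAs and nuclear or X-linked lncRNAs matched any of the 493 by symbol, which does not show whether they are among the 459 genes without a name, and H19 and Tug1 are annotated as protein-coding in the table.

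Of the 25 symbols, 21 had promoters in RefSeq's table, in 22 entries that run from 250 bases before to 50 bases after the start of a gene. Those of the genes that were called in the same direction in both cell lines are shown, since the comparison of the lines turns on them; Lemd2, which also belongs to them, had no entry. Bases are in lower case and 5′ to 3′ in the direction of the gene (GRCr8), and capitals mark ACGTG, the core of the hypoxia response element, on either strand, where it reads CACGT on the opposite one.

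Hilpda (chr4:58836213-58836512, plus strand): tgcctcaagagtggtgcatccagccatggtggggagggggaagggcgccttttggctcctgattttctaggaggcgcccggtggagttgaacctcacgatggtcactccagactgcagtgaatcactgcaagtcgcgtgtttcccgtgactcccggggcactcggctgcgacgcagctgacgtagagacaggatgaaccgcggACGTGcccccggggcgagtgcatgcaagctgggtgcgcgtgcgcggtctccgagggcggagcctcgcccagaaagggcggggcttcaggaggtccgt
Sumo3 (chr20:11020238-11020537, minus strand): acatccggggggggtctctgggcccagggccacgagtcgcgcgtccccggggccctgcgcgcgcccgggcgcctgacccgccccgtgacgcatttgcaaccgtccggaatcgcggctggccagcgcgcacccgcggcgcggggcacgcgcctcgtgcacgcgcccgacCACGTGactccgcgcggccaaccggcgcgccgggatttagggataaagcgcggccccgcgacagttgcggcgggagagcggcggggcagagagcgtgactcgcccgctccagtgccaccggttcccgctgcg
Fendrr (chr19:66061417-66061716, minus strand): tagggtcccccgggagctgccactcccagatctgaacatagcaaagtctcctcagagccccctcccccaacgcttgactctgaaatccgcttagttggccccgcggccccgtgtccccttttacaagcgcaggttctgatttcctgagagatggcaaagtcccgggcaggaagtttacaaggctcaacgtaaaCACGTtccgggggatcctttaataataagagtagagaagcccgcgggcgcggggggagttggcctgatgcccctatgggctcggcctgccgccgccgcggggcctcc
Rab32 (chr1:6781209-6781508, minus strand): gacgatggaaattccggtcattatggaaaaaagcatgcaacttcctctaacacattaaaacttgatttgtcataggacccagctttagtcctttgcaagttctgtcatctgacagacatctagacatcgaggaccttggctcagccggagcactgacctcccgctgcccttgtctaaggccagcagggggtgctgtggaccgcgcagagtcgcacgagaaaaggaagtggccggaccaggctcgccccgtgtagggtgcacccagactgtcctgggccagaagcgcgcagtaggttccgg
Selenow (chr1:85732654-85732953, minus strand): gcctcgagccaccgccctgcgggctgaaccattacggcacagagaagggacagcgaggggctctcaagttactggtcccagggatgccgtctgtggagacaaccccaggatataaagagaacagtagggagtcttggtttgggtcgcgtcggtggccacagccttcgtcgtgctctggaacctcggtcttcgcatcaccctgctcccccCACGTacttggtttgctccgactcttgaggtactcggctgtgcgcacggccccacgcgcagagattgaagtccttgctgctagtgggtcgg

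The Hilpda, Fendrr and Selenow promoters held the core at 1 place each, the Sumo3 promoter held both strands of it in a single CACGTG, and no match was found in the Rab32 window. It was present in 10 of the 22 promoters and in 19.3% of all 33469 promoters in the table. The whole E-box CACGTG, which contains the core, stood in 2 of the 22 (Mafk and Sumo3) against 6.42% of all, TGACNNNGC, the core of the antioxidant response element, in 3 of 22 (Gng2, Mafk and Sumo3) against 12.1%, and TGATGNAA, a site of ATF4, in 0 of 22 against 3.98%, both strands searched. The median GC content was 58.5% in the 22 and 51.7% in all promoters. These matches describe the letters in these windows only.

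Levels of the lncRNA genes ranged widely above the limit of 2 CPM, and the levels of other genes were not set beside them. The median of the mean levels was 8.45 CPM, 264 genes were under 10 CPM and 13 were at 100 CPM or more, and the 20 genes with the most counts took 35.1% of the counts on all 493. These figures are not divided by transcript length, so they rank counts and not molecules. A mean of 2 FPM was reached in each of the 4 conditions by 351 genes, in 3 by 55, in 2 by 72 and in a single one by 15, and 469 genes had at least 1 count in every sample. The spread between samples of a condition, as the median coefficient of variation, was 16.3% and 19.9% in NRK-52E at pH 7.4 and 6.0 and 16.2% and 18.9% in NRK-49F, beside 14.0%, 15.4%, 12.5% and 15.5% for all 12126 tested genes with a mean of at least 2 CPM. Beyond this limit, the 12126 genes were not matched in level to the 493.

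The most counts fell on Rpl30, a protein of the large ribosomal subunit, with 555, 599 and 994 FPM (lowest, median and highest) in NRK-52E at pH 7.4 and 748, 851 and 1041 FPM at pH 6.0. In NRK-49F it was at 584, 713 and 968 FPM at pH 7.4, and its 5 samples at pH 6.0 lay between 672 and 1482 FPM. The groups overlapped, and neither change was called (log2 fold change 0.38 ± 0.18 in each line, SE, adjusted p = 0.063 and 0.12). A protein-coding row of the symbol, Rpl30.2, is on chromosome 10, while the lncRNA row is on chromosome 7. Rpl30.2 was called in NRK-52E by the same edgeR fit (0.50, adjusted p = 0.0090). In NRK-49F it was not (0.38, adjusted p = 0.092). Next came the clone AABR07048992.1, with 338 ± 72.3 FPM (SD, n = 6) in NRK-52E and 866 ± 152 FPM (n = 6) in NRK-49F at pH 7.4, and its samples did not overlap between the lines. ENSRNOG00000064142 on chromosome 11 was far higher in NRK-49F, with 845 ± 36.8 FPM against 6.11 ± 4.53 FPM in NRK-52E at pH 7.4, while ENSRNOG00000068560, also on chromosome 11, was at 247 ± 21 FPM in NRK-52E and 209 ± 19.8 FPM in NRK-49F. It fell at pH 6.0 in NRK-49F, to 131 ± 17.1 FPM (-0.68 ± 0.12, adjusted p = 0.00011), without overlap of samples.

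In NRK-52E, 310 of the 493 lncRNA genes were called between the pH values (quasi-likelihood F test of edgeR, p adjusted by Benjamini-Hochberg, under 0.05), beside 61.2% of all 14777 genes tested. The 310 are 62.9% of the 493, close to the background. At pH 6.0, 120 were higher (24.3%, background 24.7%) and 190 lower (38.5%, background 36.6%), and 183 did not pass the test. The median log2 fold change was -0.18, and -0.12 over all genes. A called change of more than 2-fold was found upwards in 38 (7.71%, and 7.48% of all genes) and downwards in 90 (18.3%, and 17.6% of all genes). In the 351 genes that averaged 2 FPM or more in each condition, 96 were higher (27.4%) and 120 lower (34.2%). By more than 2-fold, 25 of the 351 rose (7.12%) and 36 fell (10.3%). The shares of all genes were not held to this limit. A call without overlap between the samples of both pH values was found in 204, which is 41.4% of the 493 beside 38.4% of all genes.

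In NRK-49F, 150 genes were called, 30.4% of the 493 beside 28.9% of all. Of these 68 were higher (13.8%, background 14.5%) and 82 lower (16.6%, background 14.4%) at pH 6.0, and 343 did not pass the test. The median was -0.03, and 0.00 over all genes. By more than 2-fold, 13 rose (2.64%, and 3.60% of all genes) and 33 fell (6.69%, and 4.69% of all genes), and 108 were called with no overlap of samples, 21.9% beside 18.6% of all genes. In the 351 genes that averaged 2 FPM or more in each condition, 52 were higher (14.8%) and 51 lower (14.5%). The larger share of falls among all calls was thus not seen in this subset. By more than 2-fold, 4 of the 351 rose (1.14%) and 12 fell (3.42%), so falls still outnumbered rises there. The shares of all genes were not held to this limit. Both lines together, 41 lncRNA genes were higher in each line (8.32%, background 6.94%), 58 lower in each (11.8%, background 9.39%), 16 were called in opposite directions (3.25%, background 4.18%) and 148 were called in neither. The plot of both changes shows these classes.

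**Figure D1:**
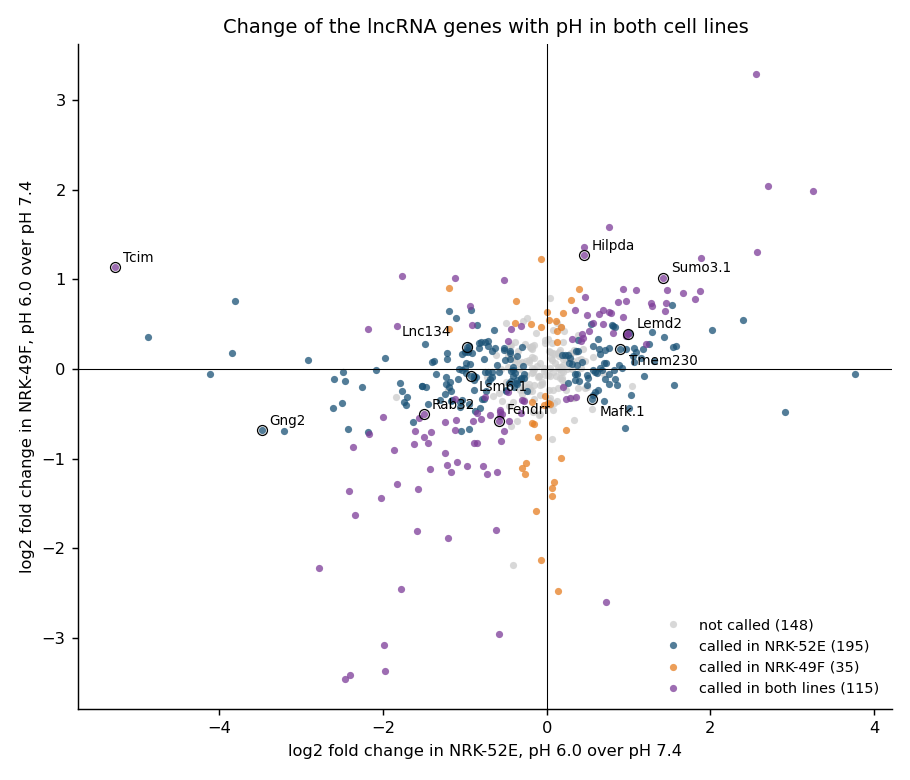
Log2 fold change from pH 7.4 to pH 6.0 in NRK-52E (x axis) and NRK-49F (y axis) for each of the 493 lncRNA genes, 1 point each, coloured by the line in which the change was called at an adjusted p under 0.05. The spread is wider along the NRK-52E axis, where 195 genes (39.6%, and 40.7% of all genes tested) were called in that line alone, against 35 (7.10%, and 8.38% of all) in NRK-49F alone. Tcim, farthest to the left at -5.27, had at most 17 counts in a NRK-52E sample.

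At pH 6.0, 6 of the 25 symbols were called in the same direction in both lines, Hilpda, Sumo3.1 and Lemd2 upwards and Rab32, Fendrr and Selenow.1 downwards. Of all genes tested, 6.94% were higher and 9.39% lower in both lines. Hilpda encodes a protein of lipid droplets that inhibits the triglyceride lipase ATGL and is induced in hypoxia. Its level in NRK-49F was 32.3, 35.4 and 49.6 FPM (lowest, median, highest) at pH 7.4 and 118, 71.6, 92.3, 95.1 and 69.4 FPM in the samples at pH 6.0. In NRK-52E it was 26, 32.1 and 35.1 FPM at pH 7.4 and 36.7, 40.3 and 57.2 FPM at pH 6.0. The samples of both pH values were apart in each line, by a wide gap in NRK-49F and a narrow one in NRK-52E. The log2 fold change was 1.27 ± 0.14 (SE, adjusted p = 3.0e-07) in NRK-49F and 0.46 ± 0.14 (adjusted p = 0.0056) in NRK-52E, and the difference between them was called (-0.81 ± 0.20, adjusted p = 0.0018).

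Sumo3.1 carries the symbol of a small ubiquitin-like modifier that is attached to other proteins. It ran from 11.1 over a median of 13.8 to 18.9 FPM at pH 7.4 and from 33.6 over 38.9 to 43.6 FPM at pH 6.0 in NRK-52E. In NRK-49F it ran from 7.91 over 9.76 to 10.7 FPM at pH 7.4 and stood at 23, 21.8, 18.1, 15.1 and 17.3 FPM at pH 6.0. No samples of the pH values overlapped in either line. It had the largest rise of the symbols in NRK-52E (log2 fold change 1.43 ± 0.13, adjusted p = 9.6e-10), beside 1.02 ± 0.13 (adjusted p = 2.4e-06) in NRK-49F, and the difference between the lines did not pass the test (0.41 ± 0.18, adjusted p = 0.074).

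Lemd2 is a protein of the inner nuclear membrane. Its samples in NRK-52E lay between 84.7 and 108 FPM (median 100.2) at pH 7.4 and between 184 and 215 FPM (median 192) at pH 6.0. In NRK-49F they lay between 83.1 and 103 FPM (median 88.8) at pH 7.4 and at 142, 116, 114, 120.2 and 110.0 FPM at pH 6.0. The gap between the pH values was wide in NRK-52E and small in NRK-49F. The rise was 0.99 ± 0.08 (adjusted p = 1.3e-10) in NRK-52E and 0.39 ± 0.08 (adjusted p = 0.00062) in NRK-49F on the log2 scale, a difference of 0.60 ± 0.11 that was called (adjusted p = 0.00014).

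Fendrr, one of the 3 that RefSeq also lists as a lncRNA, fell in both lines. In NRK-52E it was at 25.1, 26.7 and 31.4 FPM (lowest, median, highest) at pH 7.4 and at 17.6, 18.3 and 19.5 FPM at pH 6.0. In NRK-49F it was at 32.7, 37.7 and 49.5 FPM at pH 7.4 and at 30.0, 23, 25, 27.1 and 23.1 FPM at pH 6.0. Each line's samples were apart, and at each pH the gene was higher in NRK-49F. The log2 fold changes were -0.58 ± 0.10 (adjusted p = 1.7e-05) and -0.58 ± 0.10 (adjusted p = 0.00011), with a difference of 0.00 ± 0.14.

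Rab32 is a small GTPase of vesicle traffic to lysosome-related organelles. It fell from 30.5, 41 and 44.4 FPM to 11.5, 14.5 and 16.0 FPM (lowest, median, highest) in NRK-52E. In NRK-49F it was at 48.9, 58.2 and 64.2 FPM at pH 7.4 and at 30.2, 44.5, 47.4, 38.1 and 42 FPM at pH 6.0, so that the samples were apart but close. The log2 fold change was -1.49 ± 0.12 (adjusted p = 1.7e-10) in NRK-52E and -0.50 ± 0.12 (adjusted p = 0.0026) in NRK-49F, and the difference of -0.99 ± 0.17 was called (adjusted p = 4.2e-05). Selenow.1, with the symbol of the small selenoprotein W, fell by 0.56 ± 0.11 (adjusted p = 0.0001) and 0.52 ± 0.12 (adjusted p = 0.0021) on the log2 scale. It lay between 15.4 and 19.4 FPM at pH 7.4 and between 10.6 and 12.3 FPM at pH 6.0 in NRK-52E, and between 5.28 and 7.71 and between 3.56 and 5.61 FPM in NRK-49F, where the samples overlapped.

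In NRK-49F, 3 of these 6 calls rested on both sample groups together. Within sample groups 4 and 6 alone, the log2 fold changes were 0.48 and 0.32 for Lemd2, -0.65 and -0.41 for Rab32 and -0.37 and -0.66 for Selenow.1, none of them called; Hilpda (1.45 and 1.10) and Sumo3.1 (1.37 and 0.72) were called within each, and Fendrr (-0.65 and -0.49) within sample group 6.

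**Figure D2:**
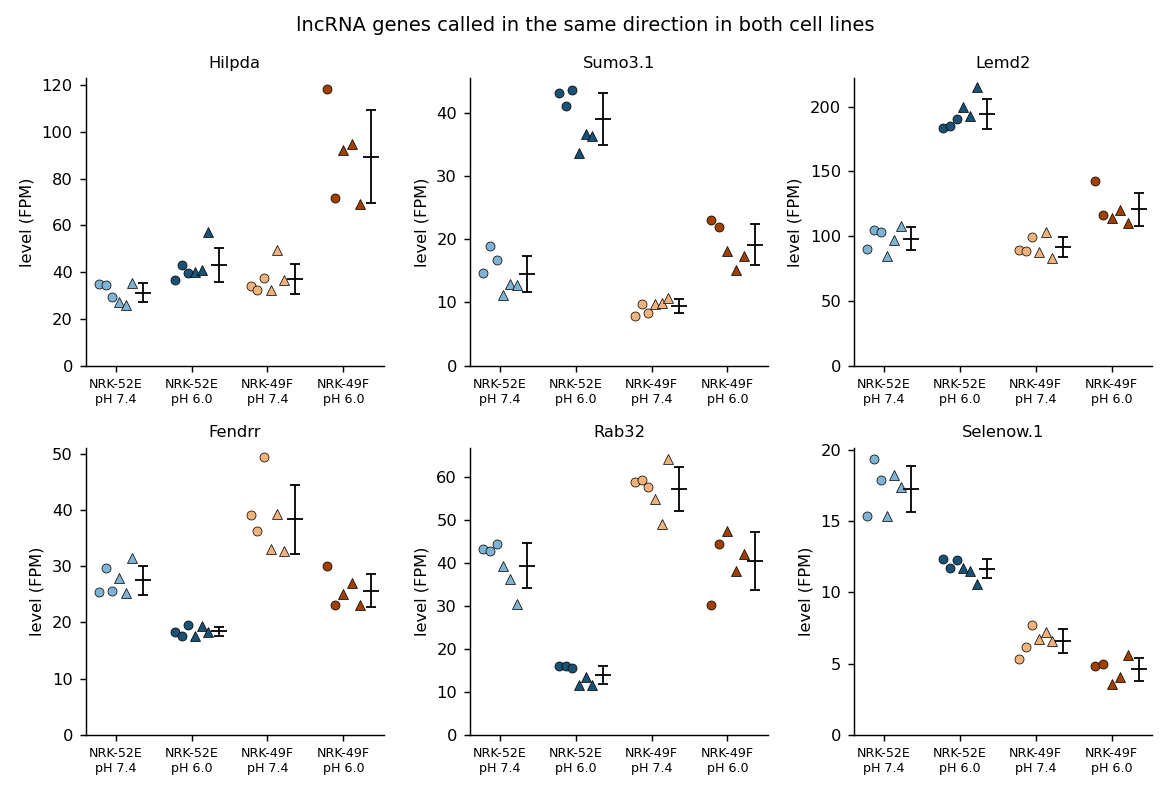
Level in each sample (FPM, y axis from 0) of 6 genes annotated as lncRNA, by cell line and pH. Circles stand for sample groups 1 and 4 and triangles for sample groups 3 and 6, with mean ± SD beside the points. Of the 6, RefSeq lists Fendrr alone as a lncRNA gene and the others as protein-coding genes. Hilpda rose most in NRK-49F, Sumo3.1 and Lemd2 rose in both lines, and Fendrr, Rab32 and Selenow.1 fell, with Rab32 lowest in NRK-52E at pH 6.0 at 11.5 to 16.0 FPM.

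Of the other symbols, 4 were called upwards and 7 downwards in NRK-52E alone. Of all genes tested, 16.5% were called upwards and 24.2% downwards in that line alone. Upwards were Tmem230, a membrane protein of secretory and recycling vesicles (77.1 ± 2.50 to 143 ± 26.6 FPM, SD, n = 6 each, log2 fold change 0.90 ± 0.09, adjusted p = 5.6e-09), Mafk.1, with the symbol of a small MAF protein that pairs with NRF2 (8.66 ± 0.600 to 12.7 ± 2.01 FPM, 0.55 ± 0.13, adjusted p = 0.001), Gpbp1l2 (0.28 ± 0.08) and Samd8, a ceramide phosphoethanolamine synthase (0.26 ± 0.10). Downwards were Gng2, Lnc134, Lsm6.1, Ufsp1, Mrpl52, Gid4 and Snapc5. Gng2, a gamma subunit of heterotrimeric G proteins, had the largest fall of a symbol that was not near 0 in NRK-52E, from 3.41, 8.86 and 15.7 FPM to 0.266, 0.692 and 1.43 FPM (lowest, median, highest), with no overlap. Its log2 fold change was -3.48 ± 0.44 (adjusted p = 2.9e-07). Lnc134 fell from 6.79, 7.43 and 8.97 FPM to 2.83, 3.79 and 5.24 FPM, again with no overlap (-0.98 ± 0.13, adjusted p = 4.4e-07). Lsm6.1, with the symbol of a ring protein of the U6 particle and of mRNA decay, fell by 0.92 ± 0.13 (adjusted p = 2.5e-06) on the log2 scale. Smaller falls were those of Ufsp1, a protease of the modifier UFM1 (-0.42 ± 0.18), Mrpl52 of the mitochondrial ribosome (-0.39 ± 0.13), Gid4, a substrate receptor of the CTLH ubiquitin ligase (-0.31 ± 0.09), and Snapc5, a subunit of the complex that activates snRNA genes (-0.28 ± 0.10). Mrpl52, Gid4 and Samd8 were not called within sample group 1 alone (-0.14, -0.13 and 0.14) but were within sample group 3 (-0.47, -0.34 and 0.54). Snapc5 and Ufsp1 were called within neither. Tmem230, Mafk.1, Gpbp1l2, Gng2, Lnc134 and Lsm6.1 were called within each. The call of Samd8 ended without A035, A036 or A037, that of Snapc5 without A036 or A037, and that of Ufsp1 without any of 7 libraries (A021, A024, A025, A026, A033, A035 or A036), with adjusted p up to 0.088, 0.053 and 0.12. The protein-coding rows of Samd8 and Lsm6 were called in NRK-52E in the same edgeR fit (0.82, adjusted p = 8.8e-06, and -0.71, adjusted p = 0.0019). That of Gid4 was not (0.18, adjusted p = 0.26), with a sign opposite to the lncRNA row. The protein-coding row of Lsm6 is on chromosome 13, while RefSeq places the gene on chromosome 19. Whether these rows share reads with the lncRNA rows was not tested.

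Called in NRK-49F alone were Ubl3, a membrane-anchored ubiquitin-like protein, and Tspyl1, of the family of nucleosome assembly proteins. Ubl3 fell from 109 ± 4.99 to 82.6 ± 3.21 FPM (-0.40 ± 0.06, adjusted p = 2.7e-05), with no overlap. Tspyl1 fell from 31.4 ± 2.67 to 23.9 ± 3.17 FPM (-0.39 ± 0.12, adjusted p = 0.016), a call that ended without A042 (adjusted p = 0.058). Rpl30, Micos10, of the complex that shapes mitochondrial cristae, Bloc1s6, Cdc42se1 and Krbox1 passed the test in neither line. Krbox1 was at 1.84 ± 0.305 and 2.54 ± 0.873 FPM in NRK-52E (0.47 ± 0.21, adjusted p = 0.058). The plot of the symbols gives the changes side by side.

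**Figure D3:**
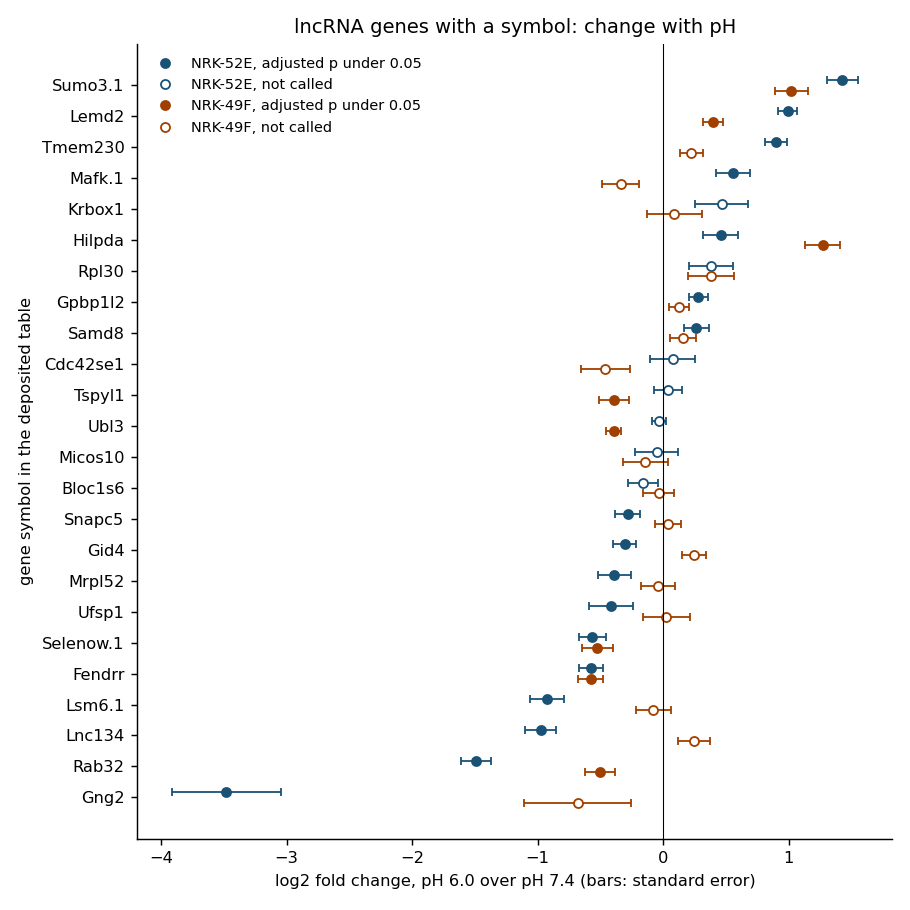
Log2 fold change from pH 7.4 to pH 6.0 (x axis, bars are standard errors) of 24 of the 25 genes with a symbol and the annotation lncRNA. NRK-52E is blue and NRK-49F brown, with filled points for an adjusted p under 0.05. RefSeq lists 22 of the 25 as protein-coding genes. Tcim is left out because its level in NRK-52E was near 0; Gng2 has the largest fall, -3.48 in NRK-52E, and Sumo3.1 the largest rise there, 1.43.

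Among genes without a symbol and averaging 5 FPM or more across the samples, a pair on chromosome 18 had the largest falls in NRK-49F. ENSRNOG00000063513 fell in NRK-49F from 188, 203 and 226 FPM (lowest, median, highest) to 15.2, 22.7, 14.5, 22.7 and 18.4 FPM, and in NRK-52E from 30.6, 49.1 and 57.3 FPM to 5.68, 8.78 and 11.5 FPM. ENSRNOG00000063634 fell in NRK-49F from 246, 269 and 298 FPM to 27.3, 30.7, 18.2, 28.9 and 21.4 FPM, and in NRK-52E from 59.2, 69.3 and 78.5 FPM to 9.38, 12.5 and 17.8 FPM. No sample of one pH overlapped with the other for either gene in either line. The log2 fold changes were -3.45 ± 0.21 and -3.41 ± 0.16 in NRK-49F and -2.46 ± 0.19 and -2.40 ± 0.15 in NRK-52E (adjusted p from 2.8e-13 to 1.0e-10), and the falls were larger in NRK-49F (differences 1.00 ± 0.26 and 1.01 ± 0.21, adjusted p = 0.0035 and 0.00037). The ratio of the first to the second was 0.717 ± 0.107 over the 23 samples (range 0.426 to 0.860), and whether both rows share reads was not tested. ENSRNOG00000070543 on chromosome 12 fell by 2.41 ± 0.23 in NRK-52E and 1.36 ± 0.21 in NRK-49F on the log2 scale, again without overlap.

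The largest rise in NRK-52E, by the same limit, was that of ENSRNOG00000070630 on chromosome 20, from 0.319, 0.675 and 0.895 FPM to 7.74, 8.79 and 10.5 FPM (lowest, median, highest). In NRK-49F the same gene was at 27.6, 31.9 and 39.2 FPM at pH 7.4 and at 36.1, 26.6, 31.9, 33 and 27.7 FPM at pH 6.0. It thus rose without overlap in the line where it was low, and its samples overlapped between the pH values in the line where it was high (3.77 ± 0.17, adjusted p = 1.1e-14, and -0.05 ± 0.13, adjusted p = 0.81, with a called difference of 3.82 ± 0.21, adjusted p = 5.2e-12). ENSRNOG00000067254 on chromosome 17 rose in both lines, by 2.57 ± 0.35 (adjusted p = 9.0e-07) in NRK-52E and 1.31 ± 0.34 (adjusted p = 0.0059) in NRK-49F, and ENSRNOG00000065005 on chromosome 1 rose by 1.37 ± 0.16 in NRK-49F and 0.45 ± 0.14 in NRK-52E.

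The difference between the pH changes of both lines was called for 211 of the 493 genes, 42.8% beside 41.4% of all. The change was higher in NRK-52E in 87 (17.6%, background 16.8%) and lower in 124 (25.2%, background 24.7%), with a median difference of -0.08, and -0.09 over all genes. In the 351 genes that averaged 2 FPM or more in each condition, it was higher in 70 (19.9%) and lower in 76 (21.7%), with a median of -0.04. Among the 25 symbols, 5 were called one way (Lemd2, Tmem230, Ubl3, Tspyl1 and Mafk.1, from 0.36 to 0.89) and 7 the other (Hilpda, Rab32, Gid4, Lsm6.1, Lnc134, Gng2 and Tcim). Lnc134 was at 6.93, 7.35 and 8.72 FPM at pH 7.4 and 9.33, 8.48, 8.42, 8.73 and 9.83 FPM at pH 6.0 in NRK-49F, where the groups overlapped (0.25 ± 0.13, adjusted p = 0.16), against its fall in NRK-52E; the difference was -1.22 ± 0.18 (adjusted p = 7.8e-06). For Mafk.1 the changes were 0.55 ± 0.13 and -0.34 ± 0.15, and their difference 0.89 ± 0.20 (adjusted p = 0.00093). The difference of Tspyl1 (0.43 ± 0.16, adjusted p = 0.039) was lost without any of 11 of the 23 libraries.

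Of the 16 genes called in opposite directions, 5 were higher at pH 6.0 in NRK-52E and lower in NRK-49F, and 11 the reverse. ENSRNOG00000067172 on chromosome 1 fell in NRK-52E from 3.13, 3.68 and 4.37 FPM to 0.629, 1.12 and 1.38 FPM (lowest, median, highest). In NRK-49F it rose from 12.3, 16.3 and 18.1 FPM to between 28.4 and 36 FPM. The samples were apart in both lines, and the log2 fold changes were -1.77 ± 0.16 and 1.03 ± 0.13, with a difference of -2.81 ± 0.21 (adjusted p = 3.9e-10). ENSRNOG00000063527 on chromosome 4 changed by -2.18 ± 0.17 and 0.45 ± 0.16, ENSRNOG00000063937 on chromosome 1 by 0.35 ± 0.07 and -0.31 ± 0.07, and ENSRNOG00000063894 on chromosome 14 by 0.73 ± 0.27 and -2.60 ± 0.76, the last from only 0.228 ± 0.241 FPM in NRK-49F. Within sample groups 4 and 6 alone, the NRK-49F changes of ENSRNOG00000063527 (0.31 and 0.52) and ENSRNOG00000063937 (-0.42 and -0.26) were called in neither, while those of ENSRNOG00000067172 (1.08 and 1.02) were called in each.

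Tcim, a small regulator of transcription also called TC1, was the symbol with opposite calls. It rose in NRK-49F from 15.7, 17 and 24.5 FPM (lowest, median, highest) to 34.2, 31.4, 46.8, 49.3 and 39.6 FPM, without overlap (1.13 ± 0.26, adjusted p = 0.0027). In NRK-52E it had 17, 6 and 7 counts in the samples A021, A022 and A023 of sample group 1 at pH 7.4 and 0 counts in the other 9 samples, so that its fall is at least 1.21-fold against a level of 3 counts in each sample. Some fibroblast markers followed it in part. Pdgfra, Vcam1, Lum and Prrx1 reached 1.54%, 1.47%, 2.37% and 1.48% of their NRK-49F level in A021, and at pH 6.0 Pdgfra was at most 0.0345% of it in NRK-52E. Of the NRK-52E samples at pH 7.4, A021 was also the highest for Postn, Col1a2, Twist1 and Col1a1. It was the lowest for Pdgfrb (38.6 FPM) and Col3a1 (4678 FPM), and Dcn was at 0 FPM in NRK-52E. In A023, with 7 counts of Tcim, Lum and Prrx1 had 0 counts, and in A033, with 0 counts of Tcim, Pdgfra, Vcam1 and Prrx1 had 36, 29 and 36 counts. ENSRNOG00000064142 moved in the same way, from 14.8, 7.16, 3.28, 4.78, 2.89 and 3.74 FPM in NRK-52E at pH 7.4, with A021 highest, to 0.331 to 1.86 FPM at pH 6.0 (-2.26 ± 0.34, adjusted p = 4.9e-06). The part of this marker signal in the falls of both genes in NRK-52E was not tested.

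Between the cell lines at pH 7.4, 332 of the 493 genes were called, 67.3% beside 68.8% of all. The direction was uneven: 232 were higher in NRK-52E (47.1%, background 35%) and 100 in NRK-49F (20.3%, background 33.9%). The median log2 ratio of NRK-52E to NRK-49F was 0.32, and 0.02 over all genes tested, and 260 were called with no overlap of samples, 52.7% beside 50.4% of all. At pH 6.0, 372 were called (75.5%, background 75.5%), 229 higher in NRK-52E (46.5%, background 36.6%) and 143 in NRK-49F (29.0%, background 38.9%), with a median of 0.25, and -0.02 over all. Calls with no overlap were 290, 58.8% beside 57.3% of all. Some of the 493 met the limit of 2 CPM through a single line. In the 351 genes that averaged 2 FPM or more in each condition, 145 were higher in NRK-52E (41.3%) and 68 in NRK-49F (19.4%) at pH 7.4. At pH 6.0, 152 of the 351 were higher in NRK-52E (43.3%) and 97 in NRK-49F (27.6%), with a median of 0.18. The shares of all genes tested are not matched to these, since that limit was not applied to all genes. The 2 cell lines differ in every sample, so line and any difference in handling between the lines cannot be told apart.

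**Figure D4:**
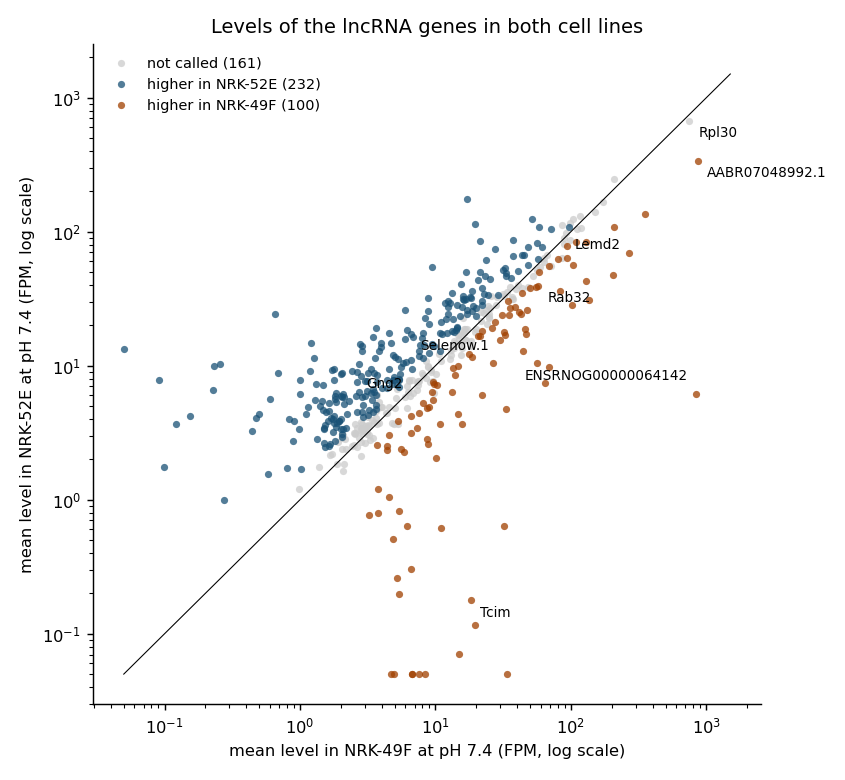
Mean level of each of the 493 lncRNA genes at pH 7.4 in NRK-49F (x axis) and NRK-52E (y axis), in FPM on log scales, with the line of equal levels and means under 0.05 FPM drawn at 0.05. More points lie above the line of equality (232 called higher in NRK-52E) than below it (100), and ENSRNOG00000064142 stands at 845 FPM in NRK-49F and 6.11 FPM in NRK-52E.

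Among the 25 symbols, 8 were higher in NRK-52E, 7 in NRK-49F and 10 were not called at pH 7.4. Of all genes tested, 35% were higher in NRK-52E and 33.9% in NRK-49F. The largest ratios to NRK-52E were those of Gng2 (log2 ratio 1.76 ± 0.39), Selenow.1 (1.39 ± 0.11), Gid4 (0.81 ± 0.09) and Lsm6.1 (0.78 ± 0.13), and those to NRK-49F of Tcim (-6.42 ± 0.38), Micos10 (-0.94 ± 0.17) and Snapc5 (-0.86 ± 0.10). The ratio of Gng2 differed by sample group, with 3.72 ± 0.503 FPM (SD, n = 3) in sample group 1 and 14.4 ± 1.16 FPM (n = 3) in sample group 3 of NRK-52E, beside 2.21 ± 0.499 and 3.09 ± 0.110 FPM in sample groups 4 and 6 of NRK-49F. At pH 6.0, where Tcim had 0 counts in each NRK-52E sample, it was at least 274-fold higher in NRK-49F. Of genes without a symbol, ENSRNOG00000065796 on chromosome X had 30.0, 33.9 and 36.7 FPM in NRK-49F at pH 7.4 and at most 0.112 FPM in NRK-52E, and at pH 6.0, with at most 2 counts in a NRK-52E sample, it was at least 198-fold higher in NRK-49F. ENSRNOG00000066918 on chromosome 9, with at most 1 count in a NRK-52E sample, was at least 54.6-fold higher in NRK-49F at pH 7.4. In the other direction, ENSRNOG00000064499 on chromosome 20 was at 9.97 ± 1.66 FPM in NRK-52E and 0.230 ± 0.264 FPM in NRK-49F, and ENSRNOG00000071185 on chromosome 4 at 24.1 ± 6.12 and 0.658 ± 0.435 FPM. Tcim and these genes without a symbol met the limit of 2 CPM only through the line where they were high. Those without a symbol were also named for their large ratio, so these ratios are given as a description.

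Within NRK-52E, the pH change differed between sample groups 1 and 3 for 51 of the 493 genes, 10.3% beside 10.6% of all. In 9 it was higher in sample group 3 (1.83%, background 3.78%) and in 42 lower (8.52%, background 6.87%). Without the library A021, 33 were called, and DESeq2 called 78. ENSRNOG00000064855 on chromosome 2 went from 2.60, 3.77 and 4.22 FPM to 1.65, 0.929 and 1.37 FPM in sample group 1 and from 2.91, 2.40 and 2.21 FPM to 4.30, 4.91 and 3.55 FPM in sample group 3. The directions were thus opposite, with no overlap in either (difference 2.16 ± 0.40, adjusted p = 0.0016). ENSRNOG00000066647 on chromosome 1 fell further in sample group 3 (difference -1.86 ± 0.42, adjusted p = 0.0064).

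The only symbol with such a call was Tmem230. It went from 77.6, 81.6 and 75.3 FPM to 124, 123 and 112 FPM in sample group 1 and from 74.5, 77.3 and 76.4 FPM to 167, 161 and 173 FPM in sample group 3. The groups started level and ended apart, and the rise was larger in sample group 3 by 0.52 ± 0.10 on the log2 scale (adjusted p = 0.0014). Gng2 differed in level instead: its samples at pH 7.4 were at 3.41, 3.44 and 4.30 FPM in sample group 1 and at 14.0, 15.7 and 13.4 FPM in sample group 3. It fell within each, by 2.96 and 3.50 on the log2 scale, a difference that was not called (-0.54 ± 0.45, adjusted p = 0.51). ENSRNOG00000067254 was likewise higher in sample group 3 at both pH values. In NRK-49F, edgeR called 0 of the 493 genes for a difference between sample groups 4 and 6, and 0 of all genes tested (background 0%); 28 of the 493 (5.68%, and 4.03% of all genes tested) had an unadjusted p under 0.05, and DESeq2 called 0.

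**Figure D5:**
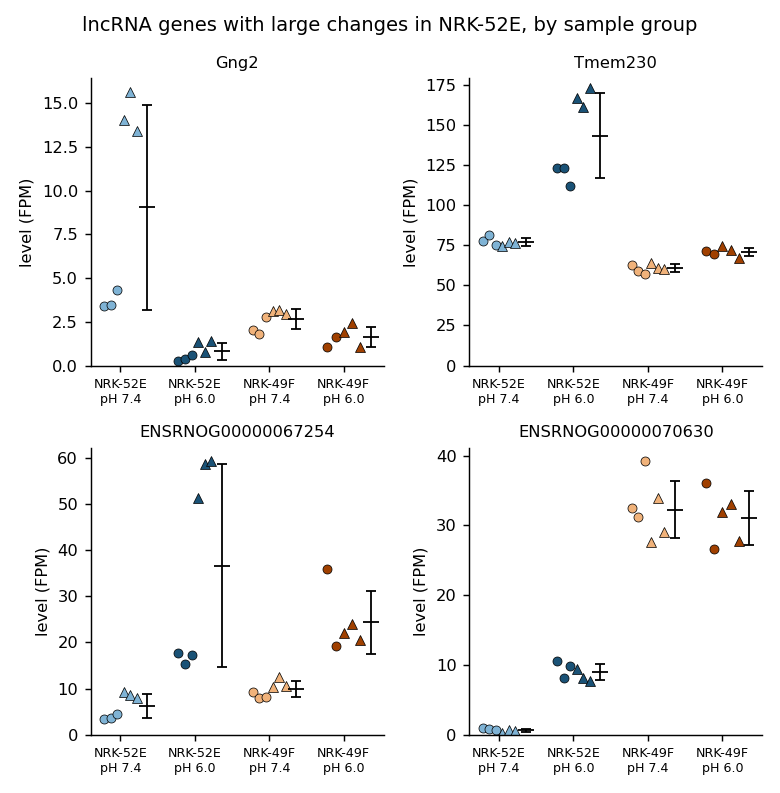
Level in each sample (FPM, y axis from 0) of 4 genes annotated as lncRNA, by cell line and pH. Circles stand for sample groups 1 and 4 and triangles for sample groups 3 and 6, with mean ± SD beside the points. RefSeq lists Gng2 and Tmem230 as protein-coding genes. The NRK-52E samples of Gng2 and ENSRNOG00000067254 separate by sample group at each pH, those of Tmem230 at pH 6.0 alone, and those of ENSRNOG00000070630 rise in both sample groups, to between 7.74 and 10.5 FPM.

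Proteins that act on lncRNAs were taken as 2 lists of protein-coding genes. Paraspeckle proteins build a nuclear body on a lncRNA scaffold. In NRK-52E, 2 of the 13 rose and 6 fell at pH 6.0, with a median log2 fold change of -0.14, beside -0.12 over all genes, of which 24.7% were higher and 36.6% lower. Those that fell included Pspc1 (37.5 to 13.9 FPM, -1.43 ± 0.08), Sfpq (177 to 97.6 FPM, -0.86 ± 0.10) and Nono (-0.27 ± 0.07), members of 1 protein family, and Rbm14 (0.47 ± 0.19) and Smarca4 (0.28 ± 0.06) rose. In NRK-49F, Pspc1 alone was called, from 23.7 to 34 FPM (0.52 ± 0.08, adjusted p = 1.7e-05). Nonsense-mediated decay and the exon junction complex remove transcripts with a stop codon ahead of an exon junction, many lncRNAs among them. Of 17 such genes, 6 rose and 3 fell in NRK-52E (median 0.07), where 24.7% of all genes tested were higher and 36.6% lower, and 1 rose and 1 fell in NRK-49F (median -0.01), where these shares were 14.5% and 14.4%. Casc3 (0.81 ± 0.20), Smg8 (0.69 ± 0.09), Eif4a3 (0.64 ± 0.12) and Upf1 (0.41 ± 0.08) were among the rises, and Smg6 (-0.84 ± 0.18) and Smg9 (-0.58 ± 0.12) among the falls.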

How the data were processed

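Poly(A) RNA was sequenced in 23 labelled samples. The authors mapped paired reads with HISAT2 2.1.0 and counted them per gene with featureCounts, multi-mapping reads included, and deposited raw counts per Ensembl gene with a biotype for each. The genome is rn7 in the study's methods and rn6 in the submitters' processing notes, and the strand setting is not given in the sources used here. Of the table, 23 columns were used, and 13 columns of samples without a label here were not.

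Members were all lncRNA genes with a mean of at least 2 CPM, leaving out Nupr1l1. The members, the rule for named genes and the lists were chosen with earlier results of these data known. Counts were fitted in 1 model of 4 conditions (sample groups as 8 groups for the comparisons between them) with edgeR 4.0.16 in R 4.3.3, after filterByExpr (minimum count 10, total 15), TMM scaling and quasi-likelihood F tests on all 14777 genes, with Benjamini-Hochberg adjustment over all of them and a threshold of 0.05. FPM are CPM of TMM-scaled libraries. Each standard error is the size of the log2 fold change over the square root of F. A gene with at most 3 counts in each sample of a group was given the level of 3 counts as a bound. All genes with a symbol were named, and others by the highest mean, the largest called changes without overlap at a mean of at least 5 FPM, opposite calls, the largest ratios between the lines and calls between sample groups, at most 2 each way.

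Alternatives were DESeq2 1.42.0, RLE scaling, TMM from protein-coding genes, no filter, sample group as a block, each cell line or sample group alone, other limits, and leaving out each library; without RefSeq protein-coding symbols and with 2 FPM in each condition were chosen after seeing the data. The fit was tested on simulated data with 200 changed genes. Sequences are RefSeq's (GRCr8), matched by symbol. Figures were drawn with matplotlib 3.10.9. Totals were 16412564 to 34250535 counts per sample, and bounds cover counting error only.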

Additional observations from a re-analysis of the deposited data

Results flagged for a closer look

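Single samples stood apart from the rest of their condition in 21 of 174 groups examined (44 genes in up to 4 conditions of 5 or 6 samples), by a gap to the nearest sample above Dixon's limit of 0.71 (5 samples) or 0.625 (6 samples) of the group's range. Chance gives about 1 in 20 groups, and genes of 1 library are not independent of each other. Of these, 7 were in A035, 3 in A021 and 2 in A042. In A035 (NRK-52E pH 7.4) the level was 994 FPM for Rpl30 (median of the condition 599), 478 FPM for AABR07048992.1 (median of the condition 318), 158 FPM for Mrpl52 (median of the condition 107), 41 FPM for ENSRNOG00000063937 (median of the condition 34.3), 14.3 FPM for Samd8 (median of the condition 18.8), 12.3 FPM for ENSRNOG00000065005 (median of the condition 8.81) and 4.58 FPM for ENSRNOG00000063894 (median 6.86). In A021 (NRK-52E pH 7.4) the level was 14.8 FPM for ENSRNOG00000064142 (median of the condition 4.26), 0.0280 FPM for ENSRNOG00000066918 (median of the condition 0) and 1.26 FPM for Krbox1 (median 1.90). In A038 (NRK-52E pH 6.0) the level was 57.2 FPM for Hilpda (median of the condition 40.3). In A052 (NRK-49F pH 7.4) the level was 49.6 FPM for Hilpda (median of the condition 35.4) and 20.6 FPM for Gid4 (median 26.3). In A042 (NRK-49F pH 6.0) the level was 18.4 FPM for Tspyl1 (median of the condition 25.2) and 36 FPM for ENSRNOG00000067254 (median 22). In A026 (NRK-52E pH 6.0) the level was 0.0582 FPM for ENSRNOG00000065796 (median of the condition 0). In A051 (NRK-49F pH 7.4) the level was 1.52 FPM for ENSRNOG00000071185 (median of the condition 0.514) and 0.682 FPM for ENSRNOG00000063894 (median 0.205). In A055 (NRK-49F pH 6.0) the level was 8.88 FPM for ENSRNOG00000063527 (median of the condition 7.0). In A054 (NRK-49F pH 6.0) the level was 0.148 FPM for ENSRNOG00000063894 (median of the condition 0). In A041 (NRK-49F pH 7.4) the level was 1.76 FPM for Cdc42se1 (median of the condition 3.73).

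The pH change differed between the cell lines, by the interaction term of the edgeR fit at an adjusted p under 0.05, in 25 of the 44 genes named. Some of the 44 were named by called changes or by this call itself, so this count was partly fixed by the choice of genes. Over all genes tested, the share was 41.4%. The log2 fold change of NRK-52E minus that of NRK-49F was positive for ENSRNOG00000070630 (3.82), ENSRNOG00000063894 (3.33), ENSRNOG00000064855 (1.45), ENSRNOG00000067254 (1.26), ENSRNOG00000063634 (1.01), ENSRNOG00000063513 (1.00), ENSRNOG00000068560 (0.92), Mafk.1 (0.89), Tmem230 (0.67), ENSRNOG00000063937 (0.67), Lemd2 (0.60), Tspyl1 (0.43) and Ubl3 (0.36). It was negative for Tcim (-6.40), ENSRNOG00000067172 (-2.81), Gng2 (-2.80), ENSRNOG00000063527 (-2.63), ENSRNOG00000064142 (-2.06), Lnc134 (-1.22), ENSRNOG00000070543 (-1.05), Rab32 (-0.99), ENSRNOG00000065005 (-0.91), Lsm6.1 (-0.84), Hilpda (-0.81) and Gid4 (-0.55). The value of Tcim rests on 0 counts in NRK-52E at pH 6.0 and depends on the prior count of the fit. Within NRK-52E, the change in sample group 3 minus that in sample group 1 was called for Tmem230 (0.52), ENSRNOG00000070543 (-0.95), ENSRNOG00000066647 (-1.86) and ENSRNOG00000064855 (2.16).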

How the results depend on the processing

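The counts of called lncRNA genes stayed within 1.5 times the reported ones under most alternatives, and the exceptions follow. A test against a log2 fold change of 1 called 71 genes for pH in NRK-52E, 12 in NRK-49F, 24 for the difference between the lines, 136 between the lines at pH 7.4 and 157 at pH 6.0. An adjusted p under 0.01 left 98 for pH in NRK-49F and 17 for sample groups 1 and 3, for which DESeq2 called 78. Within sample group 4 alone 39 and within sample group 6 alone 68 genes were called for pH in NRK-49F, with 5 and 6 samples in place of 11. With a mean of at least 5 CPM, 317 genes were left, of which 213 were called between the lines at pH 7.4 and 243 at pH 6.0, and with 2 FPM in each condition, chosen after seeing the data, 213 of 351 at pH 7.4. These last alternatives hold fewer genes or samples, and the cause of the other moves was not tested.

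Leaving out 1 library at a time gave 297 to 322 genes for pH in NRK-52E, 132 to 144 in NRK-49F, 192 to 223 for the difference between the lines, 323 to 336 and 359 to 371 between the lines at pH 7.4 and 6.0, 33 to 47 for sample groups 1 and 3 (33 without A021) and 0 to 1 for sample groups 4 and 6 (1 without A043). The change of ENSRNOG00000064855 in NRK-52E, -0.13 and not called, was 0.83 within sample group 3, the only named gene whose direction was counted as reversed. Among the other alternatives of the named genes, 4480 values kept direction and call, 194 lost the call and 62 gained it. The call of Gng2 between the lines at pH 6.0 was lost without any of 7 libraries (A024, A025, A026, A037, A043, A054 or A055) and that of Gid4 without A056. No paired analysis was possible because the replicate codes of the labels are not shared between groups. With 16412564 counts in the smallest library, 3 counts lie far under the limit of 2 CPM, and depth limits the genes near 0 in a single line, such as Tcim.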
